A study of Homo sapiens with 6 samples.

Results

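The LGI genes and the genes of their ADAM receptors were followed in HEK293 cells carrying an extra BAHD1 gene and in the matching control line. The group was chosen from the gene family after LGI2 had stood among the largest differences on these arrays, and it was taken as 6 genes, LGI1, LGI2, LGI3, LGI4, ADAM11 and ADAM22, each on 1 probe set that named that gene alone, among 21062 probe sets that named at least 1 gene. Because this contrast was known when the genes were chosen, their differences are described without a test.

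LGI (leucine-rich glioma-inactivated) proteins are secreted. They carry leucine-rich repeats followed by a propeller of EAR (epilepsy-associated) repeats, and bind transmembrane proteins of the ADAM family that lack protease activity. At synapses, LGI1 bound to ADAM22 and ADAM23 links the membranes of both cells and holds scaffold proteins, AMPA-type glutamate receptors and Kv1 potassium channels in place, and inherited loss of LGI1 causes a lateral temporal lobe epilepsy. LGI4 acts with ADAM22 in the myelination of peripheral nerves by Schwann cells. HEK293 is an established cell line of embryonic kidney origin, so these genes were measured here outside the tissues in which the system is best known.

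Total RNA of 3 replicates of each line was hybridized to Affymetrix HuGene 1.0 ST arrays. HEK-BAHD1 cells carry a single integrated BAHD1 cDNA under the cytomegalovirus promoter, and HEK-CT cells carry at the same site a β-galactosidase sequence set out of frame according to the sample labels, or an empty vector according to the supplement. Both lines derive from a HEK293 host with 1 recombination site, were kept as stable pools of transfectants and were grown in hygromycin B. The replicates were separate flasks of 1 pool per line, so the spread between arrays is that of cultures and not of independent integrations. According to the supplement, HEK-BAHD1 replicate 2 was taken at a later passage than the control and replicate 1. The supplement gives no passage for a replicate 3, and does not say whether its replicate numbers are those of the arrays. The signal is the log2 value that the authors obtained with RMA, the method that corrects background, normalizes arrays and summarises the probes of a gene. Array medians lay between 5.46 and 5.56.

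BAHD1 itself ran against the labels. It was at 10.06, 9.81 and 9.93 on the arrays labelled HEK-CT and 6.75, 7.0 and 6.76 on those labelled HEK-BAHD1, which is a log2 fold change of -3.10 (SE 0.093, limma adjusted p = 3.12e-05, where SE is the standard error from limma, a linear model fitted to every probe set with variances moderated across them). By RT-QPCR and immunoblot the study found BAHD1 higher in HEK-BAHD1 cells, opposite to these arrays as labelled, and this does not settle which label is right. The directions below are those of the deposited labels, and all of them would turn if the labels were exchanged. Over all tested probe sets, 6.79% were called higher under the HEK-BAHD1 label and 6.39% lower, where a call needs an adjusted p under 0.05 in limma and medians that differ by more than 0.2 on the log2 scale. With each array centred on its median, these 1430 higher and 1345 lower calls became 1052 and 1823. The keratin genes KRT8 and KRT18, of the epithelial markers known in HEK293, were at 11.61 to 11.69 and 10.67 to 10.70 on the arrays labelled HEK-CT. On those labelled HEK-BAHD1 they were at 11.41 to 11.60 and 10.52 to 10.58, lower without overlap but not called. Of the same 7 listed markers of the HEK293 line, NEFL and NEFM were called higher, at 0.40 and 0.77, and VIM lower, at -0.28. PAX2 and CDH2 were at 0.16 and -0.15 and not called.

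LGI2 showed the largest difference of the family, and it encodes a secreted ligand whose loss causes a juvenile epilepsy in dogs. The 3 arrays labelled HEK-CT gave log2 signals of 6.07, 6.10 and 5.91. Those labelled HEK-BAHD1 gave 7.36, 7.24 and 7.26, in the order of replicates 1, 2 and 3, which is kept for every gene below. The lowest array labelled HEK-BAHD1 lay 1.14 above the highest labelled HEK-CT, so the groups were far apart compared with the spread within either. Group means were 6.03 ± 0.10 and 7.29 ± 0.064 (SD, n = 3 each), a log2 fold change of 1.26 with an SE of 0.070 or 2.39-fold. The LGI2 difference ranked 11 among the rises of all tested probe sets. In bulk RNA, a change in the number of cells that express a gene cannot be told apart from a change in RNA per cell. The log2 fold change lay between 1.19 and 1.30 under every alternative processing that was tried, arrays left out included.

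LGI1, the ligand best known from epilepsy, showed no such step. Its log2 signal was 3.49, 3.22 and 3.38 on the arrays labelled HEK-CT and 3.41, 3.47 and 3.35 on those labelled HEK-BAHD1. The arrays labelled HEK-BAHD1 all lay within the range of the others, and the log2 fold change was 0.047 (SE 0.079). The sign turned to -0.025 without HEK-CT replicate 2. LGI1 and LGI4 were among the dimmest 30% of the tested probe sets by mean signal, where a change of transcript is hard to see, whereas the other 4 genes were not. Of those 4, LGI3 lay at the edge of this range, at percentile 30.1 of mean signal.

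The sequences before the annotated starts of LGI2 and LGI1 are shown because LGI2 had the largest log2 fold change of the family and LGI1, the best-known ligand, had groups that overlapped. They are the 250 bases before the start in RefSeq, read 5′ to 3′ on the strand of the gene in build GRCh38.p14, at chr4:25030947-25031196 (minus strand) for LGI2 and chr10:93757686-93757935 (plus strand) for LGI1. Capitals mark a GC box, GGGCGG or CCGCCC, the element to which SP1 binds, and a CCAAT box, CCAAT or ATTGG.
LGI2: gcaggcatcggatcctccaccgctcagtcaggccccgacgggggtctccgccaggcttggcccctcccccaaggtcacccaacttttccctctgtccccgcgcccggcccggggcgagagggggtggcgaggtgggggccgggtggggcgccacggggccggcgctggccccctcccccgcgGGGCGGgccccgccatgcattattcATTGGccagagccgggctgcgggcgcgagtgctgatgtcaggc
LGI1: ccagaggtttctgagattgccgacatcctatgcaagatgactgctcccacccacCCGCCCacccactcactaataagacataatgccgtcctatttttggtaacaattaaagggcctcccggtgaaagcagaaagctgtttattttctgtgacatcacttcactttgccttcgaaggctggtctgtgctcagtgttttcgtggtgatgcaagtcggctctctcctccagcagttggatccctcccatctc
The LGI2 stretch had a GC content of 75.6% with 24 CG dinucleotides, and the LGI1 stretch 50% with 7. Over 35116 such stretches the medians were 58.0% and 11. LGI2 held 1 GC box and 1 CCAAT box, and LGI1 held 1 GC box and 0 CCAAT boxes. Of all stretches, 42.6% held a GC box and 32% a CCAAT box on either strand. A TATA box, TATAAA or TTTATA, was found in 10.7% of all stretches and in 0 of the 4 that the table holds for these genes. In the ADAM22 stretch there were 2 GC boxes and 1 CCAAT box, the latter overlapping a GC box, and in that of LGI4 0 of either. These matches describe letters and not binding. Entries for LGI3 and ADAM11 were not used here.

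LGI3, a secreted relative found in brain and nerve, gave a log2 signal of 4.92, 4.46 and 4.91 on the arrays labelled HEK-CT and 5.0, 5.03 and 5.27 on those labelled HEK-BAHD1. The groups did not overlap, but the gap between them was 0.08, less than the spread within the HEK-CT arrays, of which replicate 2 was the lowest. The log2 fold change was 0.34 (SE 0.13), the difference of the medians was 0.12, and without HEK-CT replicate 2 the log2 fold change was 0.19.

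LGI4, the Schwann cell ligand, had a log2 signal of 4.62, 4.26 and 4.19 on the arrays labelled HEK-CT and of 4.26 on each of the 3 labelled HEK-BAHD1. The medians were equal, and the groups overlapped. LGI4 was the only one of the 6 genes with a lower mean on the arrays labelled HEK-BAHD1, at a log2 fold change of -0.097 (SE 0.11), and this sign rested on HEK-CT replicate 1, without which the value was 0.035.

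Of the receptor genes, ADAM11 had the larger log2 fold change, with no test of its difference from ADAM22. ADAM11 encodes a catalytically inactive ADAM of neurons, and its log2 signal was 6.21, 5.90 and 5.80 on the arrays labelled HEK-CT and 6.35, 6.44 and 6.30 on those labelled HEK-BAHD1. Every array labelled HEK-BAHD1 was above every array labelled HEK-CT, with a gap of 0.09 set by HEK-CT replicate 1. The log2 fold change was 0.39 (SE 0.11), 0.51 without HEK-CT replicate 1 and 0.31 without HEK-CT replicate 3.

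ADAM22, the main postsynaptic receptor of LGI1 and a receptor of LGI4, was at 7.18, 7.23 and 7.23 on the arrays labelled HEK-CT and at 7.31, 7.34 and 7.25 on those labelled HEK-BAHD1. Its groups were separated by 0.02, and its log2 fold change was 0.087 (SE 0.053). The spread within groups was the smallest of the family, with a pooled SD of 0.038 against 0.21 for LGI3 and a median of 0.090 over all tested probe sets. With the arrays centred on their medians the ADAM22 value was 0.047.

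**Figure D1:**
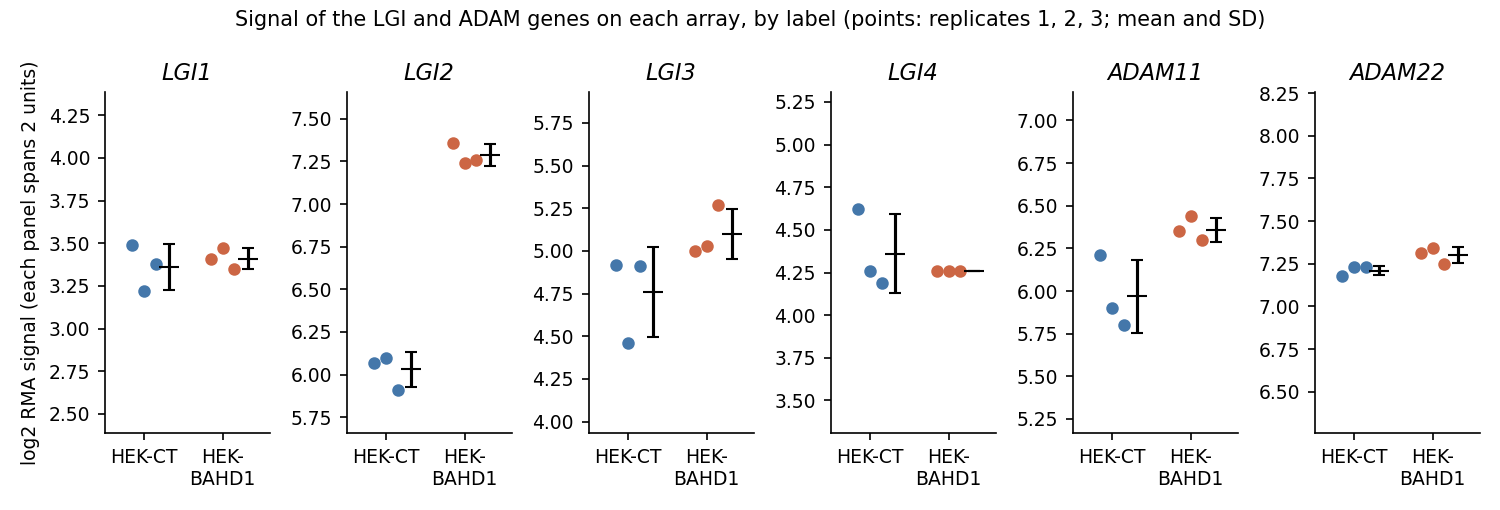
Log2 RMA signal (vertical axes, 2 units in every panel, placed at a different level for each gene) of the 6 genes on the arrays labelled HEK-CT (blue) and HEK-BAHD1 (red); points are replicates 1, 2 and 3 from left to right, with the group mean and its SD drawn beside them. LGI2 stands apart with a gap of 1.14 between the groups, against 0.09 for ADAM11, 0.08 for LGI3 and 0.02 for ADAM22, while LGI1 and LGI4 overlap.

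Counted together, 4 of the 6 genes had groups that did not overlap, all of them higher on the arrays labelled HEK-BAHD1, against 16.7% of all tested probe sets in that direction and 33.6% in either. LGI2 and ADAM11 met the call rule, against the 6.79% of probe sets called higher, and the other 4 genes did not meet it. LGI2 met it under all 15 settings, the reported fit included, and ADAM11 under 6 of these 15. ADAM11 did not meet it with the arrays centred or quantile normalized again, with all probe sets tested, with the replicate number as a block, or without any single array other than HEK-CT replicate 1. The median log2 fold change was 0.21 over the 6 genes and 0.0033 over all tested probe sets. Nothing is read from these shares or from the calls under each setting, because the genes were chosen with this contrast known. The settings reuse the same 6 arrays and are no test of the members.

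**Figure D2:**
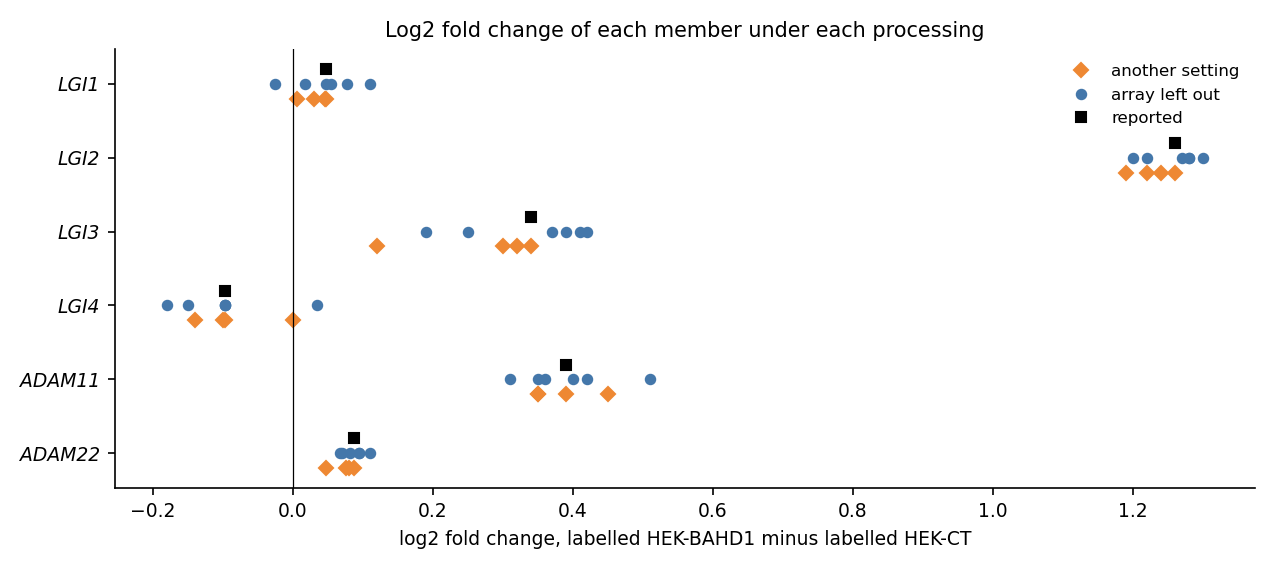
Log2 fold change (horizontal axis, HEK-BAHD1 label minus HEK-CT label) of each of the 6 genes as reported (black), with 1 array left out (blue) and under another scaling, test or block (orange). LGI2 stays between 1.19 and 1.30, ADAM11 between 0.31 and 0.51, and the values of LGI1 and LGI4 fall on both sides of 0.

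Genes with the most similar profile were found for LGI2 and ADAM11, the members with separate groups and a difference of medians above 0.2, as the root mean square difference of log2 signals after subtracting the mean of each gene over the 6 arrays. Nearest to LGI2 among 19310 probe sets naming 1 gene were SCD, a fatty acid desaturase, at 0.0799, the sodium leak channel NALCN at 0.0972 and the transcription factor MYC at 0.113. SCD was at 9.12, 9.17 and 9.12 on the arrays labelled HEK-CT and at 10.30, 10.28 and 10.29 on those labelled HEK-BAHD1. The SCD step between the groups was 1.15 on the log2 scale, close in size to that of LGI2. NALCN and MYC had steps of 1.12 and 1.08. Only 2 probe sets lay within 0.1 of the LGI2 profile.
Nearest to ADAM11 were the phosphatase PTP4A3 at 0.0449, lactoferrin LTF at 0.0451 and the glycosyltransferase GALNT16 at 0.0531, with 78 probe sets within 0.1. Like ADAM11, each had its highest HEK-CT value in replicate 1 and its lowest in replicate 3, which the choice by likeness favoured. Over 6 arrays in 2 groups, likeness records both the size of the step between the groups and the pattern of arrays within them.

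**Figure D3:**
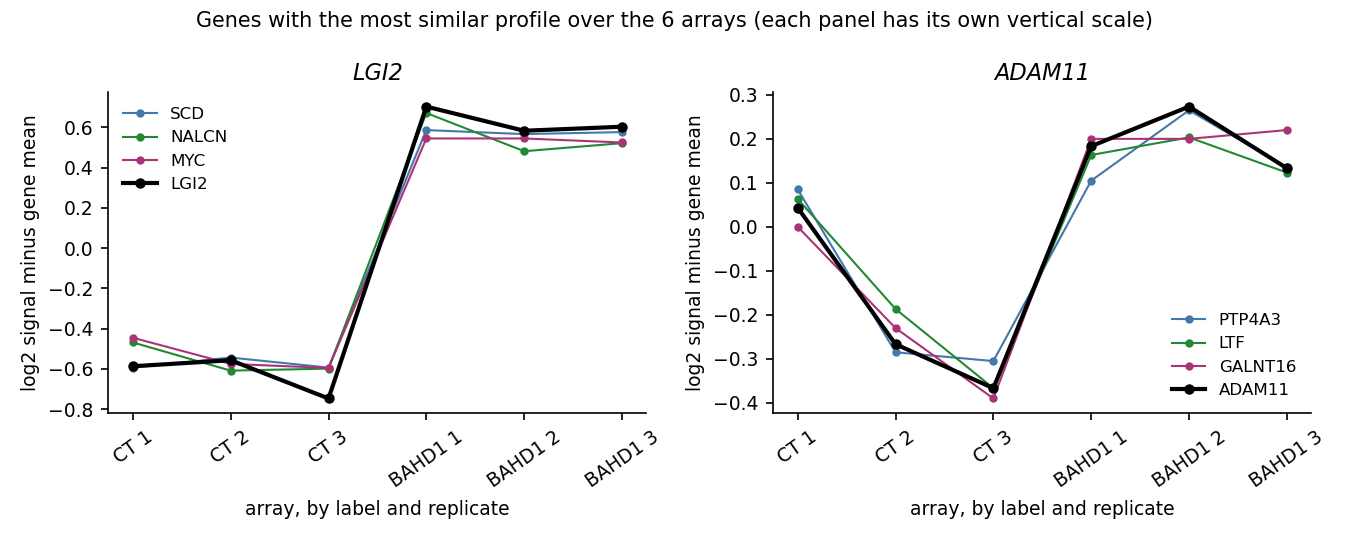
Log2 signal minus the mean of each gene (vertical axes, scaled separately) on the 6 arrays (horizontal axis; their order within a label has no meaning) for LGI2 and ADAM11 (black) and the 3 genes nearest to each. The genes beside LGI2 step up by 1.08 to 1.15, and those beside ADAM11 share its higher value on HEK-CT replicate 1. The choice by likeness favoured both.

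Position was a property that the choice of the family did not use, and the nearest 2 tested genes on each side of every member were examined in the gene order of GRCh38. Of these 24 neighbours, 3 were called higher by limma and 0 lower, against 6.79% and 6.39% of all tested probe sets, with 4 higher and 1 lower before adjustment (p under 0.05) and 2 and 0 by the local pooled error (LPE) test, which takes its error from probe sets of like signal. LGI2 lies on chromosome 4 between CCDC149, a coiled-coil gene, and SEPSECS, which makes selenocysteinyl-tRNA. CCDC149 had a log2 signal of 4.90, 5.12 and 5.0 on the arrays labelled HEK-CT and of 5.27, 5.47 and 5.54 on those labelled HEK-BAHD1. It was called higher, with a log2 fold change of 0.42 (SE 0.089, limma adjusted p = 0.0224). That call was lost on leaving out HEK-CT replicate 1, HEK-CT replicate 3, HEK-BAHD1 replicate 2 or HEK-BAHD1 replicate 3, with log2 fold changes of 0.37, 0.42, 0.40 and 0.36 (adjusted p from 0.0667 to 0.0712 from limma). SEPSECS on the other side was not called, at 0.050 (SE 0.098). Next outward, SOD3, an extracellular superoxide dismutase, was at 0.13, and the lipid kinase PI4K2B at -0.047 (adjusted p = 0.206 and 0.664 from limma). The log2 fold change of 1.26 in LGI2 was thus above those of its 4 neighbours, a comparison that was not tested. The choice of the family after the LGI2 difference was seen favoured this order.
Around ADAM11 on chromosome 17, none of the 4 neighbours was called. CCDC43 was at -0.26 (adjusted p = 0.0282 from limma), with medians exactly at the threshold, and the kinase regulator DBF4B, the connexin GJC1 and HIGD1B were at -0.047, -0.067 and 0.057. Beside LGI4, FXYD3, a regulator of the sodium pump, was called at 0.29 (adjusted p = 0.0388 from limma). That FXYD3 call was lost with the arrays centred (0.25, adjusted p = 0.0691 from limma) and after quantile normalization again (0.28, 0.0543). It was also lost by the LPE test (adjusted p = 0.0789), and in limma with all probe sets (0.0623), an intensity trend (0.0562) or the replicate block (0.0525). Without any single array other than HEK-CT replicate 2 it was lost too (0.26 to 0.34, adjusted p from 0.0526 to 0.121 from limma). Beside ADAM22, the calcium-binding protein gene SRI was called at 0.25 (adjusted p = 0.0221 from limma) and lost without any single array, at values from 0.23 to 0.26 (adjusted p from 0.0527 to 0.0664). No neighbour of LGI1 or LGI3 was called.

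**Figure D4:**
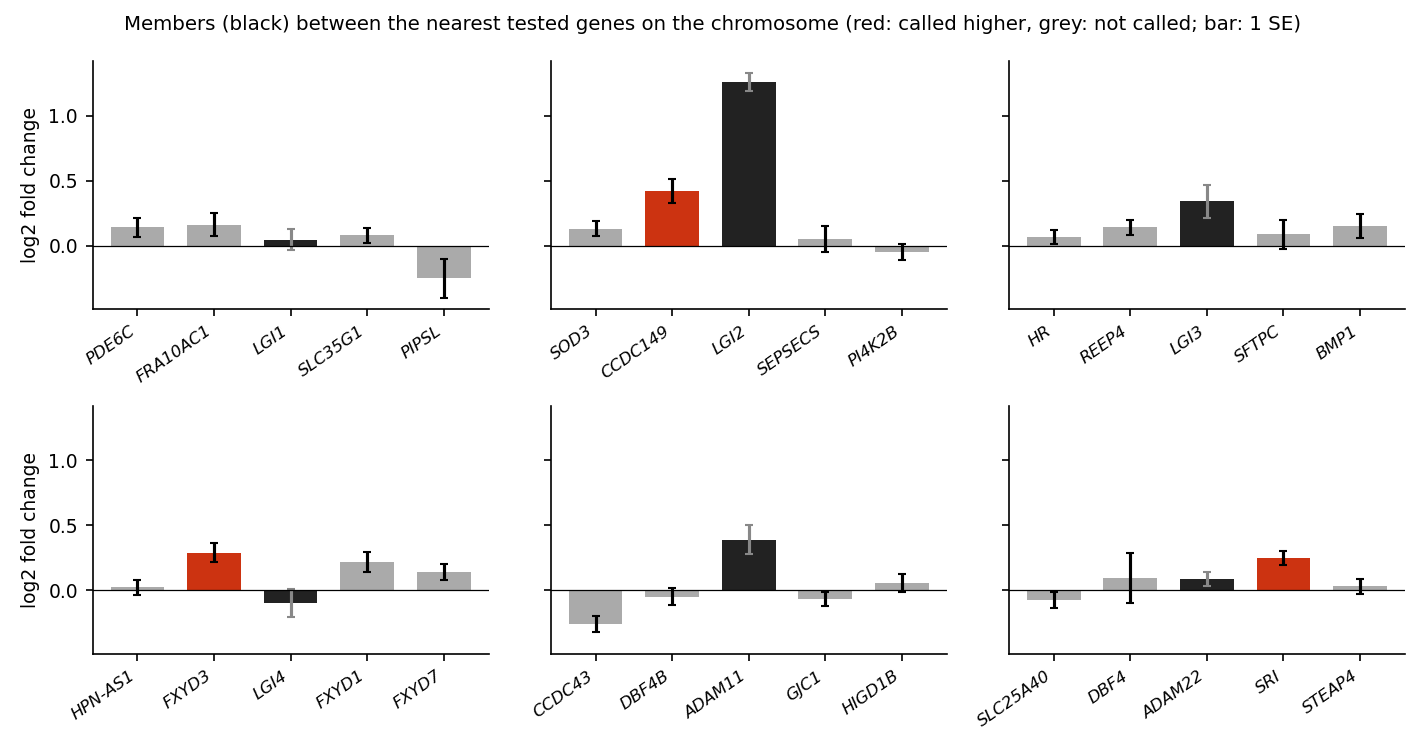
Log2 fold change (vertical axis, HEK-BAHD1 label minus HEK-CT label; bar, 1 SE) of each member (black) and of the nearest 2 tested genes on each side in gene order (horizontal axis; red, called higher; grey, not called). LGI2 at 1.26 stands above CCDC149 at 0.42, and SEPSECS on its other side is at 0.050.

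Genes that work with the LGI system were listed by function, and 61 of the 66 listed were measured by a probe set naming 1 gene. Of these, 5 were called higher by limma, 0 lower and 56 neither. The 8.20% called were all higher, against 6.79% of all tested probe sets called higher and 6.39% lower (13.2% in either direction). Groups did not overlap for 15 higher genes and 1 lower gene, against 16.7% and 16.9% of all tested probe sets. Before adjustment 13 were higher and 0 lower (p under 0.05), and by the LPE test 6 and 0. Over all tested probe sets the LPE test called 1324 higher and 1560 lower, and the share before adjustment was not counted. The median log2 fold change of the 61 genes was 0.070.

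Among other ADAMs without protease activity, 0 of 5 were called, with 1 higher and 0 lower both before adjustment (p under 0.05) and by the LPE test. ADAM23, the presynaptic LGI receptor, was that gene. Its log2 signal was 6.17, 6.18 and 6.08 on the arrays labelled HEK-CT and 6.52, 6.61 and 6.26 on those labelled HEK-BAHD1, so its groups did not overlap. The log2 fold change was 0.32 (SE 0.093, limma adjusted p = 0.0604), and it met the call rule with an intensity trend (adjusted p = 0.037), without the dimmest 30% of probe sets (0.036) and without HEK-BAHD1 replicate 3 (0.42, adjusted p = 0.0196). ADAM2, ADAM18, ADAM29 and ADAM32 were between -0.067 and 0.083.
Of 12 ADAMs with an active-site motif, 1 was called higher and 0 lower (2 and 0 before adjustment, at p under 0.05; 1 and 0 by LPE). ADAM12, a protease of muscle and mesenchyme, was at 4.69, 4.6 and 4.78 on the arrays labelled HEK-CT and at 5.20, 5.43 and 5.28 on those labelled HEK-BAHD1. All 3 arrays labelled HEK-BAHD1 were above the others, and the log2 fold change was 0.61 (SE 0.078, limma adjusted p = 0.00362). The sheddases ADAM10 and ADAM17 were at -0.067 and -0.0067 (standard errors 0.079 and 0.051).

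Of 14 postsynaptic scaffold and AMPA receptor genes, DLG3 alone was called higher and 0 were lower (2 and 0 before adjustment, at p under 0.05; 1 and 0 by LPE). DLG3, which encodes the scaffold SAP102, was at 7.23, 7.16 and 7.20 on the arrays labelled HEK-CT and at 7.52, 7.64 and 7.42 on those labelled HEK-BAHD1. The log2 fold change was 0.33 (SE 0.068, limma adjusted p = 0.0209). In its supplement the study lists DLG3 among X-linked genes that were lower in HEK-BAHD1 cells, opposite to the direction under the deposited labels. The call was lost without HEK-BAHD1 replicate 1 or 2 or HEK-CT replicate 2 or 3, at 0.33, 0.27, 0.31 and 0.33 (adjusted p from 0.0527 to 0.0655 from limma). DLG4, which encodes PSD-95, the scaffold that the tail of ADAM22 binds, was at 0.093 (SE 0.068, limma adjusted p = 0.421). The 4 AMPA receptor subunit genes GRIA1 to GRIA4 were between 0.083 and 0.17, with none called.
Of 9 genes of the axonal Kv1 channel complex, 0 were called in either direction (3 higher and 0 lower before adjustment, at p under 0.05; 0 and 0 by LPE). KCNA1, the channel subunit tied to LGI1 at axon terminals, was at -0.0033 (SE 0.13, limma adjusted p = 0.990), and the range over the list was -0.0033 to 0.32.
Of 7 genes of 14-3-3 proteins, adaptors that bind the tail of ADAM22, 0 were called (1 higher and 0 lower before adjustment, at p under 0.05; 1 and 0 by LPE). The values of 6 of them lay between -0.057 and 0.0067, and the epithelial member SFN was at 0.29 (adjusted p = 0.0718 from limma).

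Of 8 Schwann cell myelination genes measured, the adhesion receptor ADGRG6 was called higher and 0 were lower (1 and 0 before adjustment, at p under 0.05; 0 and 0 by LPE). Its log2 signal was 7.77, 7.88 and 7.90 on the arrays labelled HEK-CT and 8.10, 8.20 and 8.11 on those labelled HEK-BAHD1. The groups were separate, with a log2 fold change of 0.29 (SE 0.061, limma adjusted p = 0.0228), but the call was lost without any single array, at 0.25 to 0.31 (adjusted p from 0.0512 to 0.0687 from limma).
Of 6 genes of EAR repeat proteins, SLIT ligands and the Nogo receptor, 2 were called higher and 0 lower (3 and 0 before adjustment, at p under 0.05; 2 and 0 by LPE). SLIT2, an axon guidance ligand with leucine-rich repeats, was at 9.89, 9.83 and 9.81 and at 10.17, 10.21 and 10.12 on the arrays labelled HEK-CT and HEK-BAHD1. It rose by 0.32 on the log2 scale (SE 0.055, limma adjusted p = 0.0104). RTN4R, the Nogo receptor, which also binds LGI1, was at 6.56, 6.47 and 6.55 and at 6.87, 6.75 and 6.92, a log2 fold change of 0.32 (SE 0.064, limma adjusted p = 0.0186). The RTN4R call was lost without HEK-BAHD1 replicate 1 or 3 or HEK-CT replicate 2 or 3, at 0.31, 0.28, 0.29 and 0.33 (adjusted p from 0.0543 to 0.0601 from limma). ADGRV1 and TSPEAR, which carry EAR repeats like the LGI proteins, were at -0.17 and 0.14 and not called.

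**Figure D5:**
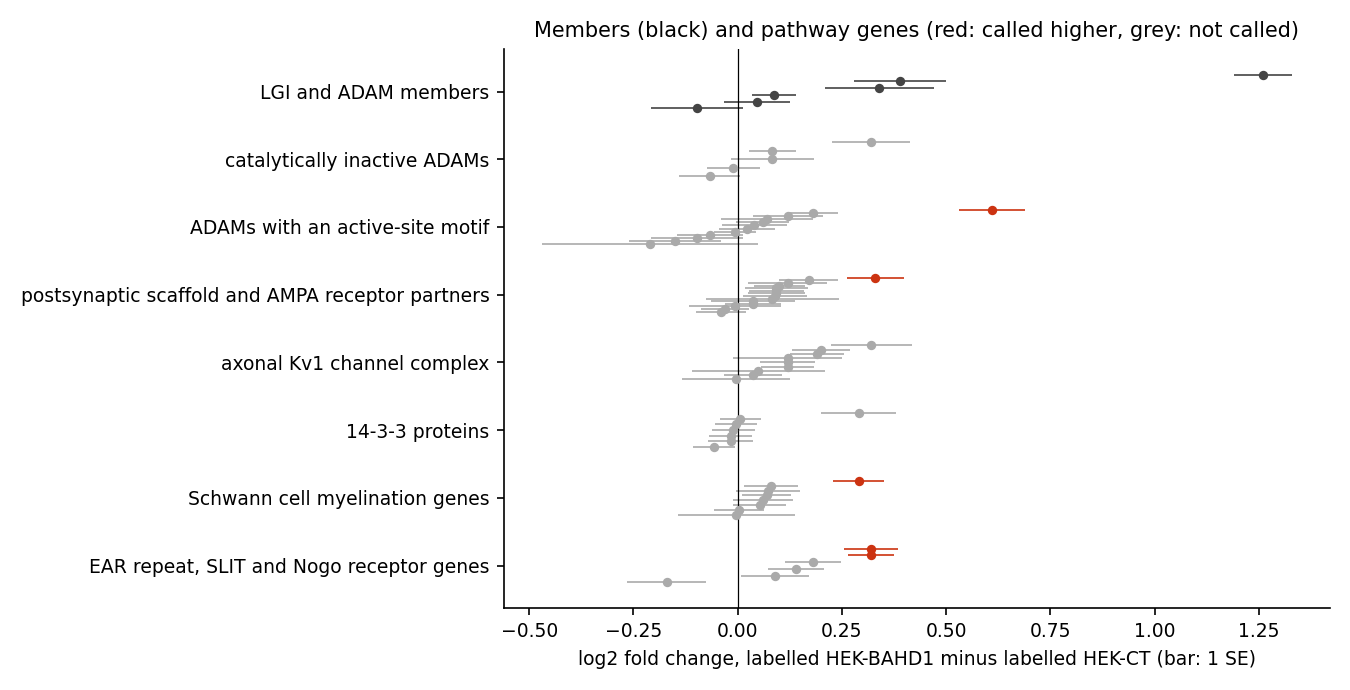
Log2 fold change (horizontal axis, HEK-BAHD1 label minus HEK-CT label; bar, 1 SE) of the 6 members (black) and of 61 pathway genes by functional list (red, called higher by limma; grey, not called). LGI2 at 1.26 lies to the right of every listed gene, of which ADAM12 at 0.61 is the nearest. The choice of the family after the LGI2 difference was seen favoured this order.

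Markers of cells in which LGI signalling is known were read beside these values. Of 5 markers of mature neurons, RBFOX3 was called higher at 0.35 and SNAP25 lower at -0.61 by limma (0 higher and 1 lower by LPE). SYT1, SLC17A7 and GAD1 were at 0.18, -0.0067 and -0.080 and not called. The signals of a list were summed before the log2 was taken, so its brightest genes weigh most. This summed signal was 8.16 to 8.24 on the arrays labelled HEK-CT and 7.95 to 8.09 on those labelled HEK-BAHD1. SNAP25 was the brightest of these markers, with means of 7.10 and 6.49. Of 3 measured markers of Schwann cells and oligodendrocytes, 0 were called by limma (1 higher and 0 lower before adjustment, at p under 0.05; 0 and 0 by LPE), with summed signals of 5.94 to 6.10 and 6.06 to 6.19. Of 5 fibroblast and 4 measured blood markers, 0 were called by limma (1 higher, in blood markers, and 1 lower, in fibroblast markers, before adjustment at p under 0.05; 0 and 0 by LPE). Of 7 markers of the HEK293 line, 2 were called higher and 1 lower by limma, and the same numbers by LPE. Before adjustment limma gave 2 higher and 3 lower (p under 0.05). The neurofilament genes NEFL and NEFM, known to be expressed in HEK293, were called higher at 0.40 and 0.77, and VIM was called lower at -0.28. The summed signal of this list was 13.21 to 13.24 on the arrays labelled HEK-CT and 13.06 to 13.18 on those labelled HEK-BAHD1. The part of these marker changes in the values of LGI2 and ADAM11 was not tested. These arrays carry no detection call here and RMA values have no zero, so no marker can be given as absent.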

How the data were processed

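RNA of 3 replicates each of HEK-CT and HEK-BAHD1 cells was measured on Affymetrix HuGene 1.0 ST arrays. The deposited log2 values were made by the authors with RMA from the CEL files, with no version stated; shared differences between arrays may remain after it. Groups were taken from the sample titles. The paper cites its arrays under a different series number, and the match rests on the lines and replicate counts. Of 28869 probe sets, 19310 named 1 gene, and their symbols were brought up to GRCh38 by gene identifier (19279 found). The sources used here do not give the genome build of that annotation.

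The 21062 named probe sets were fitted with limma 3.58.1 in R 4.3.3 with Benjamini-Hochberg adjustment. The brightest of several probe sets stood for a gene. The LPE test that the methods name was rewritten from its published description (100 bins, spline of 10 degrees of freedom) and used as an alternative. The limma and LPE methods were run on simulated arrays with independent noise, and the outcome is not given here. Added differences as small as most of those described were not simulated. The members, lists and tests were chosen with earlier results of these data known. Named genes were the members, BAHD1, ADAM23, DLG4, KCNA1, up to 4 called genes of each list, called neighbours, all 4 neighbours and the 3 nearest profiles of members with separate groups and medians over 0.2 apart; other genes were named for range or role after their values were seen. Alternatives were other scalings, filters, variance models, tests, a replicate block and leaving out each array. The number of arrays limits the precision.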

Additional observations from a re-analysis of the deposited data

How the results depend on the processing

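LGI2, ADAM11 and ADAM22 kept their direction under every alternative tried, and LGI3 too, although its value was 0.12 with the LPE test, which uses medians. ADAM22 was at 0.047 with the arrays centred on their medians. The number of members called higher was 1 in place of 2 with all probe sets tested, with the arrays centred, after quantile normalization again and with the replicate block, and 1 to 2 with 1 array left out. Over all probe sets, higher calls ranged from 806 to 938 and lower calls from 581 to 937 with 1 array left out, and lower calls were 829 with the block. With 1 array left out, pathway genes called higher ranged from 2 (without HEK-CT replicate 3) to 4, and neighbours called higher from 0 to 2. Pathway genes called higher were 5 as reported, 6 with the LPE test, and 7 with an intensity trend or without the dimmest 30% of probe sets. With the replicate block, 1 neighbour was called higher. Neighbours called lower were 1 with the arrays centred and 1 without the threshold on medians, CCDC43. Leaving out any array lowers the precision, and the cause of the other shifts was not tested.

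The replicate numbers did not pair the arrays: deviations of same-numbered arrays correlated at -0.0772, 0.0744 and -0.0384 for numbers 1, 2 and 3 across genes. The block therefore says nothing of weaker effects. With it, the calls of ADAM11, DLG3 (adjusted p = 0.0505 from limma), FXYD3 (0.0525) and SRI (0.059) were lost, pathway calls stayed at 5 in number, and higher calls over all probe sets were 962.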
